A study of Homo sapiens with 3 samples.

Results

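The complement proteins and regulators described here are 9 genes chosen by symbol from the 25242 gene symbols used. They are the secreted components C1R, C1S, C3, C5 and CFB, the secreted regulator CFI, and the membrane regulators CD46, CD55 and CD59, and all 9 were listed in every library. The cells were HepG2, an established line from a human liver carcinoma, whose total RNA the study sequenced to look for genes that follow lactate. HepG2/wild is the untreated parental line. HepG2/metR is the population that survived when HepG2 cells were kept in metformin, an inhibitor of respiratory complex I, for more than 5 months, and it makes much lactate. HepG2/metR+oxamate is HepG2/metR exposed for 24 h to oxamate at 40 mM, which inhibits lactate dehydrogenase. HepG2/metR cells are therefore a selected population, and a comparison with HepG2/wild holds the selection, the long culture and the drug together. No separate HepG2/wild culture with oxamate was analysed here.

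Complement is a set of plasma proteases and their substrates that mark surfaces for uptake and can open pores in membranes. The classical, lectin and alternative routes meet at the cleavage of C3 and go on through C5 to the membrane attack complex. Hepatocytes secrete most of the soluble components into plasma, while nearly all cells carry membrane proteins that stop the cascade on their own surface.

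There was 1 library per condition, so no p-value and no replicate spread can be given for any difference. Each deposited value was read as log2(FPKM + 1). FPKM counts sequenced fragments relative to transcript length and library size, so levels of different genes can be set side by side, and all levels below are in FPKM. A log2 change is the difference of a pair of deposited values, which understates the change of genes near 0. Changes were called past 2-fold against HepG2/wild and past 1.5-fold between HepG2/metR+oxamate and HepG2/metR, among the 12192 genes with a mean of at least 1 FPKM over the 3 libraries. The FPKM values summed to 561676 in HepG2/wild, 533957 in HepG2/metR and 473133 in HepG2/metR+oxamate. The number of reads is unknown, but the steps between the lowest values put the HepG2/metR library at 1.21 times and the HepG2/metR+oxamate library at 1.24 times the depth of HepG2/wild.

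The label of liver cells was checked against defining markers. Of 16 hepatocyte genes, 16 were at 1 FPKM or more in HepG2/wild, where they summed to 36832 FPKM and the most abundant, the lipoprotein gene APOA2, stood at 11976 FPKM. In HepG2/metR only FGB, a fibrinogen chain, was at 1 FPKM or more, at 1.30 FPKM, the list summed to 3.82 FPKM, and APOA1, TTR, FGA, FGG and AMBP were among those listed at 0. In HepG2/metR+oxamate the sum was 5.38 FPKM, again only FGB was at 1 FPKM or more, at 2.26 FPKM, and TTR was among those listed at 0. The defining hepatocyte transcripts were thus nearly absent from both HepG2/metR libraries, and whether this came with the drug, the culture or the origin of the cells cannot be told apart in this design.

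Markers of other cell types were read in the same way. Of 10 fibroblast or mesenchymal genes, 5 were at 1 FPKM or more in HepG2/wild, summing to 1548 FPKM and led by FN1 at 1503 FPKM. In HepG2/metR 6 were, with a sum of 1684 FPKM led by the intermediate filament gene VIM at 1576 FPKM, and in HepG2/metR+oxamate 6 were, with a sum of 1301 FPKM led by VIM at 1140 FPKM. Of the 6 that passed the filter, 3 were past 2-fold higher and 2 past 2-fold lower in HepG2/metR than in HepG2/wild, beside 16.6% and 17.6% of all genes kept. COL1A1, COL1A2, COL3A1 and DCN were under 1 FPKM in both HepG2/metR libraries, and none of the list was at 0 in any library. Of 8 macrophage or leukocyte genes, 3 were at 1 FPKM or more in HepG2/wild and 1, CD68, in each HepG2/metR library. Their sums were 40.8, 43.8 and 31.7 FPKM in HepG2/wild, HepG2/metR and HepG2/metR+oxamate, of which CD68 made up 35.7, 43.0 and 31.0 FPKM. The defining leukocyte gene PTPRC was at 0.0430 FPKM in HepG2/wild and lower in the others. TYROBP and AIF1 were listed at 0 in both HepG2/metR libraries, and CSF1R in HepG2/metR. None of 5 endothelial genes reached 1 FPKM, with sums of 0.347, 0.0724 and 0.230 FPKM. Of these PECAM1 was the highest in HepG2/wild, at 0.192 FPKM, and was listed at 0 in the others, where TEK led. Of 6 epithelial genes, 6 were at 1 FPKM or more in HepG2/wild and 4 in each HepG2/metR library, led by KRT8 at 1080, 897 and 664 FPKM, with sums of 2068, 1715 and 1298 FPKM, and the adhesion gene EPCAM was at 102, 0.0900 and 0.0661 FPKM. The part of these marker differences in the complement values was not tested. In bulk RNA, fewer cells that express a gene and less RNA of it per cell cannot be told apart.

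Of the 9 complement genes, the 6 secreted ones lay past 2-fold lower in HepG2/metR than in HepG2/wild, as did 17.6% of all genes kept. The membrane regulators CD55 and CD59 lay past 2-fold higher, as did 16.6% of all genes kept, and CD46 was 1.89-fold lower in FPKM, short of the threshold. Over the 9 genes the median log2 change came to -3.83, beside 0.01 over all genes kept. All 9 genes passed the filter on low values, but the 6 secreted ones passed it only through HepG2/wild and so had to be lower elsewhere. The levels by gene and library are therefore a description.

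C1R and C1S encode the paired serine proteases of the first complement component, of which that of C1S cuts C4 and C2 once C1q has bound a target. C1R was at 3.36 FPKM in HepG2/wild, 0.510 FPKM in HepG2/metR and 0.338 FPKM in HepG2/metR+oxamate. C1S was at 20.02, 0.481 and 0.609 FPKM in the same order. Both were highest in HepG2/wild and under 1 FPKM in the other libraries. The log2 change between HepG2/metR and HepG2/wild was -1.53 for C1R and -3.83 for C1S. C1R had the lowest level of the 9 genes in HepG2/wild but led the 6 secreted genes in HepG2/metR, where it and C1S differed by less than 0.03 FPKM, and their order was the other way round with oxamate.

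C3 is the component on which all routes converge, and CFB supplies the protease of the alternative route. C3 was at 429 FPKM in HepG2/wild, 0.103 FPKM in HepG2/metR and 0.168 FPKM in HepG2/metR+oxamate. In HepG2/wild it made up 48.7% of the summed FPKM of the 9 genes and ranked above 99.3% of all gene symbols. CFB was at 87.2 FPKM in HepG2/wild, 0.0140 FPKM in HepG2/metR and 0.0410 FPKM in HepG2/metR+oxamate. For both genes HepG2/wild was high and the HepG2/metR libraries were far under 1 FPKM. The log2 change between HepG2/metR and HepG2/wild was -8.61 for C3 and -6.44 for CFB. C3 had the most negative change of the 9 at pseudocounts of 1 and 0.1, but at 0.01 that of CFI was more negative, at -12.47 beside -11.89, so the order among these genes depends on the pseudocount.

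C5 starts the terminal pathway, and its cleavage frees an inflammatory peptide and seeds the membrane attack complex. It was at 43.0 FPKM in HepG2/wild, 0.218 FPKM in HepG2/metR and 0.281 FPKM in HepG2/metR+oxamate, high in HepG2/wild alone. Its log2 change between HepG2/metR and HepG2/wild was -5.17. CFI encodes factor I, the serine protease that inactivates the active fragments of C3 and C4 together with a cofactor. It was at 155 FPKM in HepG2/wild, 0.0173 FPKM in HepG2/metR and 0.0170 FPKM in HepG2/metR+oxamate, with a log2 change of -7.26 between HepG2/metR and HepG2/wild. CFI was thus the secreted gene with the highest level after C3 in HepG2/wild and among the lowest of the 9 in the other libraries.

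The start regions of CFB and CFI are shown because these genes had the lowest levels of the 9 in both HepG2/metR libraries. Each runs from 250 bases before to 50 bases after the start of the gene, 5′ to 3′ on the strand of the gene, from RefSeq on GRCh38.p14. The CFB window is chr6:31945845-31946144 on the plus strand and the CFI window is chr4:109801950-109802249 on the minus strand. Capitals mark letters of short motifs found by a search of both strands.
CFB: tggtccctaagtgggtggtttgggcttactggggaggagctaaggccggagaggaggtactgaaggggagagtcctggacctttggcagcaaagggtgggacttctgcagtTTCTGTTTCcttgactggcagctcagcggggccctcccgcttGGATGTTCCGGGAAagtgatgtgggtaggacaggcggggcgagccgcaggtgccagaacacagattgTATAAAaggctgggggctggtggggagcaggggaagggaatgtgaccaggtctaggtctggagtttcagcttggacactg
CFI: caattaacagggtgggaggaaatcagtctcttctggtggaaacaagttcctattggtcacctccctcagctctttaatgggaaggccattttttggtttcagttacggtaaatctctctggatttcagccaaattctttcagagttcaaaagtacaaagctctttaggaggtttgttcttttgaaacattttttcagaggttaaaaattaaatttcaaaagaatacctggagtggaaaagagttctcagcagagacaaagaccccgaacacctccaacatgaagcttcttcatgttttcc
The motifs searched included those of HNF4A (CAAAGTCCA, found in 0.359% of the 27305 start regions of the same length), C/EBP (TTGCNNAA, 10.6%), STAT (TTCNNNGAA, 7.88%), IRF (GAAANNGAA, 8.29%), kappaB (GGNNNTTCC, 20.1%), SP1 (GGGCGG, 44.6%) and the TATA box (TATAAA, 11.95%). The CFB window held the letters of IRF on the reverse strand, of kappaB and STAT, which overlap, and of TATA at position -30. The CFI window held none of these. A match is only a description of these letters, and no match says only that they are not in this window.

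The membrane regulators protect the cell that carries them. CD46 is a cofactor with which factor I inactivates C3 fragments on the surface, CD55 speeds the decay of the enzymes that cleave C3 and C5, and CD59 blocks the assembly of the membrane attack complex. CD46 was at 102 FPKM in HepG2/wild, 53.8 FPKM in HepG2/metR and 54.0 FPKM in HepG2/metR+oxamate. It was highest in HepG2/wild and alike in the HepG2/metR libraries, with a log2 change of -0.90 between HepG2/metR and HepG2/wild. CD55 was at 9.17 FPKM in HepG2/wild, 21.5 FPKM in HepG2/metR and 36.2 FPKM in HepG2/metR+oxamate. It was lowest in HepG2/wild and highest with oxamate, and HepG2/metR exceeded HepG2/wild by 1.14 on the log2 scale. CD59 was at 33.0 FPKM in HepG2/wild, 75.4 FPKM in HepG2/metR and 75.9 FPKM in HepG2/metR+oxamate. It was low in HepG2/wild and high in both other libraries, with a log2 change of 1.17 between HepG2/metR and HepG2/wild.

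The start regions of CD55 and CD59 are shown because these were the members past 2-fold higher in HepG2/metR. They are from the same source, at chr1:207321428-207321727 on the plus strand and chr11:33736430-33736729 on the minus strand, with capitals for the same motif letters.
CD55: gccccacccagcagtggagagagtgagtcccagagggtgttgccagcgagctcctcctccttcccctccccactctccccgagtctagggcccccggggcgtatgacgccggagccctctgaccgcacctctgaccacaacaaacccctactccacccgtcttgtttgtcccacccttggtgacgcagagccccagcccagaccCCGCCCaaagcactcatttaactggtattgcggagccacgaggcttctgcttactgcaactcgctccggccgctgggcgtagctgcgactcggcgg
CD59: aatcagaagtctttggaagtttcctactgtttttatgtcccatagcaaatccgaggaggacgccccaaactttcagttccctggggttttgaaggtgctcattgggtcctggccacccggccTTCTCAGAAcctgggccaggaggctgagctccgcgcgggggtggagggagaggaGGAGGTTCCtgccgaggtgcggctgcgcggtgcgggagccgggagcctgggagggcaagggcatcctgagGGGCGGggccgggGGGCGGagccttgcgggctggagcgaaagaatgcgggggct
The CD55 window held 1 match, to SP1 on the reverse strand. The CD59 window held the letters of STAT, of kappaB and, at 2 places, of SP1. Of the 9 genes, 7 had an entry in the table of start regions. They held 19 CpG sites in CD55, 18 in CD59 and 25 in CD46, beside 2 in CFI, 7 in CFB, 10 in C1R and 33 in C5. The median over all start regions was 14, with quartiles of 3 and 28, so the membrane regulators lay above the median and CFI below the lower quartile, while C5, a secreted gene, lay above the upper one.

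Summed over the genes of each kind, the secreted genes stood at 737 FPKM in HepG2/wild, 1.34 FPKM in HepG2/metR and 1.45 FPKM in HepG2/metR+oxamate. The membrane regulators stood at 144, 151 and 166 FPKM. Their share of the summed FPKM of the 9 genes was 16.3% in HepG2/wild and 99.1% in each HepG2/metR library. From high to low, the order in HepG2/wild was C3, CFI, CD46, CFB, C5, CD59, C1S, CD55 and C1R. In HepG2/metR it was CD59, CD46, CD55, C1R, C1S, C5, C3, CFI and CFB. With oxamate CD59, CD46 and CD55 again came before all secreted genes. Without replicates it cannot be said which neighbours in these orders differ beyond their spread.

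Oxamate was followed in HepG2/metR to see which genes move when lactate production is inhibited. CD55 alone of the 9 genes passed 1.5-fold in the higher direction, where 4.31% of all genes kept did, and none passed it in the lower direction, where 3.82% did. Over the 9 genes the median log2 change came to 0.04, beside 0.02 over all genes kept. It depends on the setting, at 0.26 and 0.33 with a pseudocount of 0.1 and 0.01, beside 0.03 over all genes kept at each, and at 0.11 with the same total, beside 0.17. CD55 was 1.69-fold higher in FPKM with oxamate, a log2 change of 0.73, and it passed 1.5-fold but not 2-fold. In the same comparison 4 of the 6 mesenchymal markers kept were past 1.5-fold higher and none lower, with a median log2 change of 0.84, where the shares of all genes are those above. They were FN1 at 45.7 FPKM without and 93.7 FPKM with oxamate, S100A4 at 1.29 and 3.41 FPKM, LUM at 3.25 and 6.69 FPKM, and PDGFRB at 3.66 and 7.26 FPKM. The summed FPKM of that list was lower with oxamate, as was VIM, its most abundant gene. The part of these markers in the CD55 value was not tested. The other membrane regulators differed little between these libraries, with log2 changes of 0.01 for CD46 and 0.01 for CD59.

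The secreted genes were under 1 FPKM with and without oxamate. Their log2 changes ran from -0.17 for C1R to 0.12 for C1S. At such levels a ratio may rest on few fragments, whose number is unknown. The FPKM of CFI with oxamate was 0.979 times that without, and 1 fragment was worth 0.978 times as much in the deeper library. The FPKM with oxamate was 2.93 times that without for CFB, 1.63 times for C3, 1.29 times for C5 and 1.27 times for C1S. For C1R it was 0.663 times that without, the other way. With a pseudocount of 0.01 in place of 1, C3 and CFB also passed 1.5-fold higher, with log2 changes of 0.65 and 1.09. C1R then fell just short of 1.5-fold lower, at -0.579.

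Against HepG2/wild, HepG2/metR+oxamate had CD55 and CD59 past 2-fold higher, beside 18% of all genes kept, and the 6 secreted genes past 2-fold lower, beside 17.7%. Log2 changes were 1.87 for CD55, 1.18 for CD59 and -0.90 for CD46. They were -8.52 for C3, -7.26 for CFI, -6.40 for CFB, -5.10 for C5, -3.71 for C1S and -1.71 for C1R. The median was -3.71, beside 0 over all genes kept. This comparison shares a library with each of the others, so it adds no independent view of either.

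The rest of the pathway was read from a list of 57 complement genes, all found in the files, of which the 9 are part. In HepG2/wild 26 of the 57 were at 1 FPKM or more, and 19 of these 26 were under 1 FPKM in both HepG2/metR libraries. Over all symbols 11339 were at 1 FPKM or more in HepG2/wild, and 1179 of them, 10.4%, were under 1 FPKM in both. The 7 genes of the list that were not were C4BPB, CLU, CD46, CD55, CD59, ITGB2 and C1QBP. Without the 9 genes the same count was 13 of 17. Of the 57 genes 25 passed the filter, 17 of them only through HepG2/wild, and these had to be lower in HepG2/metR, so a count or median over the 25 is set largely by the filter and nothing is read from it. With no filter, the median log2 change of the 57 was -0.066, beside 0 over all symbols. The genes past 2-fold higher were COLEC10, CD55 and CD59, beside 16.6% of all genes kept.

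**Figure D1:**
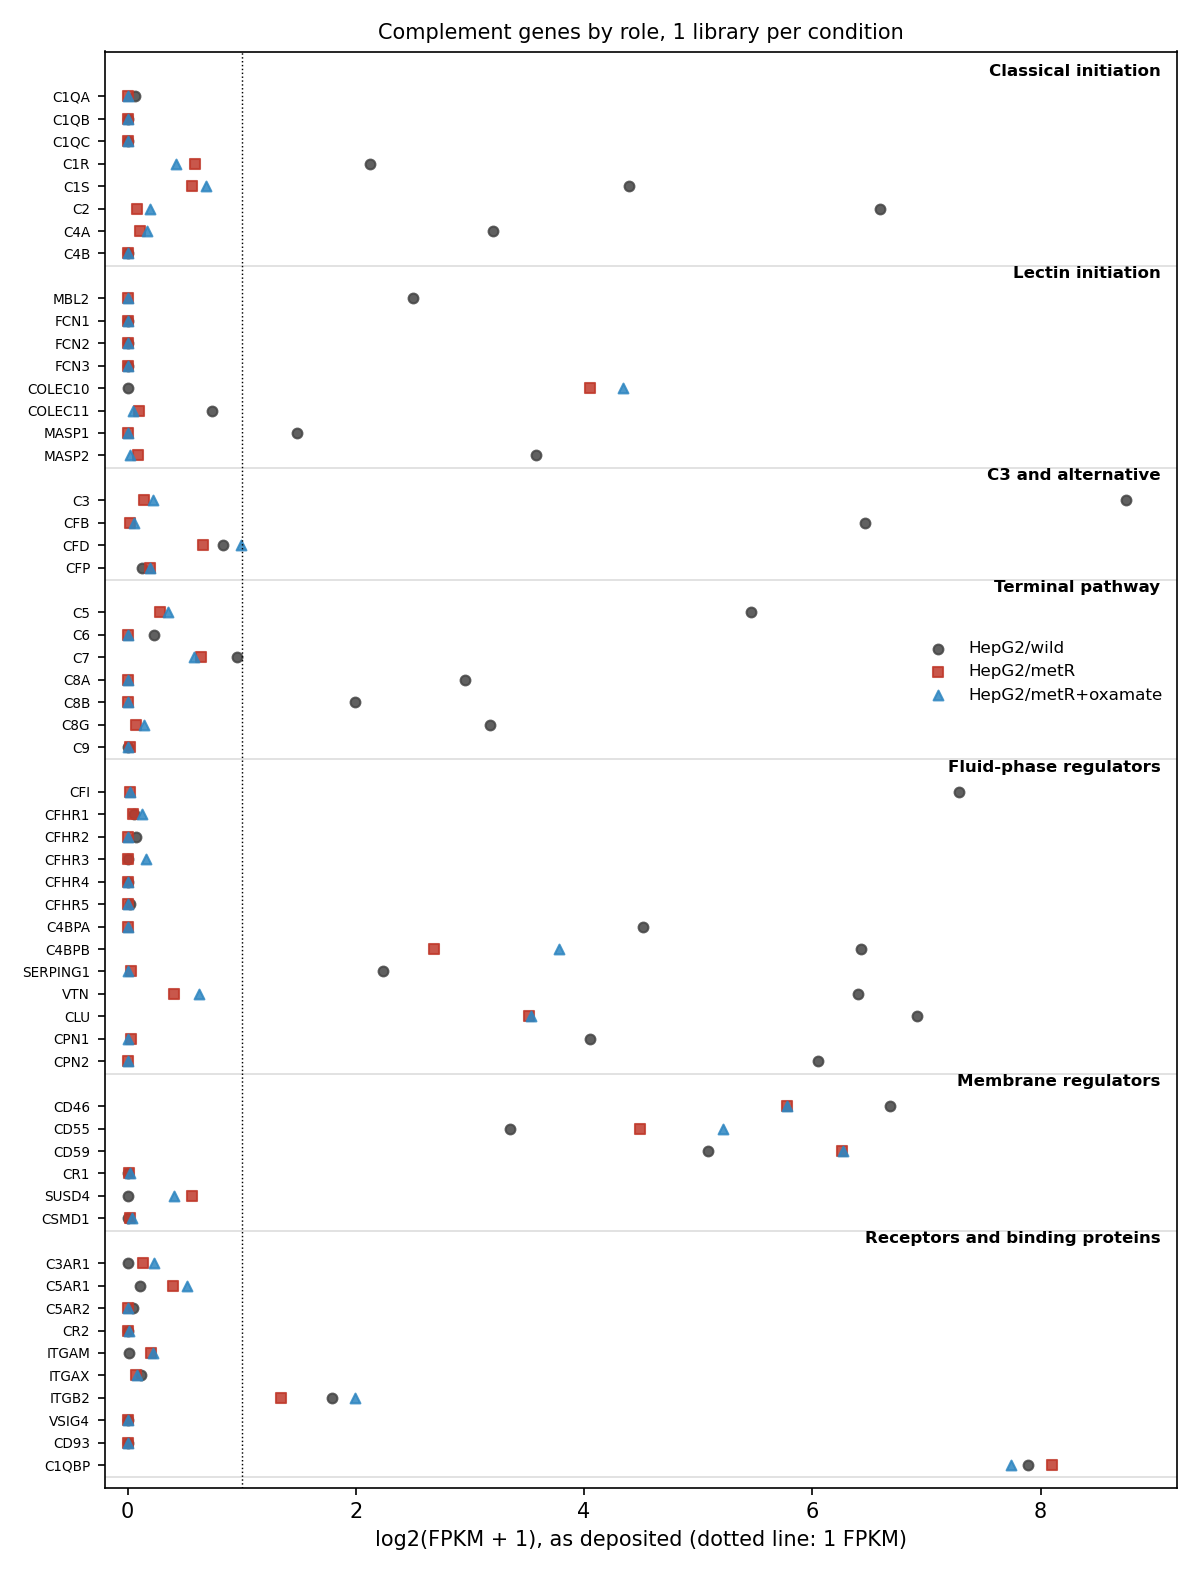
Deposited log2(FPKM + 1) values (horizontal axis) of complement genes of this list grouped by role (vertical axis) in HepG2/wild (circles), HepG2/metR (squares) and HepG2/metR+oxamate (triangles), with a dotted line at 1 FPKM. Of the 26 genes to the right of the line in HepG2/wild, 19 lie left of it in both HepG2/metR libraries, with COLEC10 the other way round.

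By role, the initiation genes of the classical route numbered 8, of which 4 passed the filter, all 4 only through HepG2/wild, so that they had to be lower in HepG2/metR. C2, cut by C1S to form part of the enzyme that cleaves C3, was at 95.8 FPKM in HepG2/wild, 0.0568 FPKM in HepG2/metR and 0.143 FPKM in HepG2/metR+oxamate. C4A was at 8.19, 0.0794 and 0.123 FPKM, but C4B is a nearly identical copy listed near 0 in all libraries, and the split of fragments between them is uncertain. The C1q chains C1QA, C1QB and C1QC were under 0.05 FPKM throughout. Of the 8 lectin route genes 3 passed the filter, 2 of them only through HepG2/wild. MBL2, the mannose-binding lectin, was at 4.66 FPKM in HepG2/wild and listed at 0 in both other libraries. MASP2, a protease of this route, was at 10.9 FPKM in HepG2/wild, 0.0641 FPKM in HepG2/metR and 0.0147 FPKM in HepG2/metR+oxamate. COLEC10, a collectin that pairs with proteases of this route, was listed at 0 in HepG2/wild and stood at 15.6 FPKM in HepG2/metR and 19.2 FPKM in HepG2/metR+oxamate. It was the only gene of the 57 that was under 1 FPKM in HepG2/wild and above it in both HepG2/metR libraries. Such gains were not counted over all symbols, so nothing is read from this number.

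Of the 4 genes of C3 and the alternative route, C3 and CFB alone passed the filter, both only through HepG2/wild. CFD, the protease that activates factor B, was at 0.783 FPKM in HepG2/wild, 0.576 FPKM in HepG2/metR and 0.991 FPKM in HepG2/metR+oxamate, under 1 FPKM in all. Of 7 terminal genes 3 passed the filter, all 3 only through HepG2/wild, so that their direction was again set by the filter. C8A, a chain of the pore-forming complex, was at 6.76 FPKM in HepG2/wild and listed at 0 in the others. C8B was at 2.98 FPKM and also listed at 0 in the others, which put it under the filter. C8G was at 8.05, 0.0517 and 0.102 FPKM. C9, the main pore subunit, was at or near 0 in every library, and so the terminal set was incomplete in HepG2/wild too.

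The fluid-phase regulators numbered 14, of which 8 passed the filter, 6 of them only through HepG2/wild. The other 2, C4BPB and CLU, were past 2-fold lower in HepG2/metR, beside 17.6% of all genes kept. C4BPA, the main chain of the C4 binding protein, was at 21.9 FPKM in HepG2/wild and listed at 0 in the others. C4BPB, its smaller chain, was at 85.0 FPKM in HepG2/wild, 5.42 FPKM in HepG2/metR and 12.7 FPKM in HepG2/metR+oxamate. The HepG2/metR libraries thus listed the small chain without the main one. CLU, which binds terminal complexes, was at 120, 10.4 and 10.6 FPKM, and VTN, which does likewise, at 83.7, 0.324 and 0.544 FPKM. CPN2, a subunit of the carboxypeptidase that trims inflammatory peptides, was at 65.1 FPKM in HepG2/wild and listed at 0 in the others.

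Of 6 membrane regulators only CD46, CD55 and CD59 passed the filter. The others, CR1, SUSD4 and CSMD1, were under 1 FPKM in every library. Among 10 receptors and binding proteins 2 passed, and neither passed 2-fold between HepG2/metR and HepG2/wild. C1QBP, a mainly mitochondrial protein that binds C1q, was at 236, 274 and 213 FPKM, and the integrin chain ITGB2 at 2.46, 1.53 and 2.98 FPKM. The anaphylatoxin receptors C3AR1, C5AR1 and C5AR2 were under 1 FPKM in all libraries. With oxamate, 3 genes of the 57, CD55, C4BPB and ITGB2, passed 1.5-fold higher and none lower, beside 4.31% and 3.82% of all genes kept, with a median log2 change of 0.01 over the 25 kept. The higher count depends on the setting. It was 5 at a pseudocount of 0.1, with C2 and VTN added, and 8 at 0.01, with 3 genes then lower, while at 2-fold C4BPB alone was left. C4BPB changed by 1.10 and ITGB2 by 0.65 on the log2 scale.

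Position on the chromosome was taken from the gene order of RefSeq on GRCh38.p14, for the 17684 protein-coding symbols matched. On chromosome 12, C1S and C1R are followed by C1RL, a related protease gene, at 18.5 FPKM in HepG2/wild, 1.40 FPKM in HepG2/metR and 2.74 FPKM in HepG2/metR+oxamate. Next to it RBP5 was at 11.7 FPKM in HepG2/wild and listed at 0 in the others, and CLSTN3 was at 32.8, 2.10 and 2.33 FPKM. The run ended at PEX5, at 20.8, 15.1 and 17.9 FPKM. On the other side LPCAT3 was at 39.3, 18.8 and 13.2 FPKM. From LPCAT3 to CLSTN3, 6 adjacent genes were thus past 2-fold lower in HepG2/metR, beside 17.6% of all genes kept. LPCAT3 differed by the least, with a log2 change of -1.02, and it fell short of 2-fold at the same total and at the upper quartile, at -0.95 and -0.88. These genes were grouped after their values were seen, and C1S, C1R and RBP5 were at 1 FPKM or more in HepG2/wild alone.

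On chromosome 6, C2 and CFB flank ZBTB12, which was at 11.1 FPKM in HepG2/wild, 9.21 FPKM in HepG2/metR and 12.3 FPKM in HepG2/metR+oxamate. NELFE, on the far side of CFB, was at 44.5, 72.5 and 49.3 FPKM. Both complement genes were near 0 in the HepG2/metR libraries while the genes between and beside them were expressed in all 3. C3 and C5 had an expressed gene next to them on 1 side. GPR108, beside C3, was at 15.4, 12.7 and 13.2 FPKM, while TNFSF14 on its other side was at 0.333 FPKM in HepG2/wild and listed at 0 in the others. CNTRL, beside C5, was at 2.95, 2.35 and 1.92 FPKM, while TRAF1 on its other side was under 1 FPKM in all 3. CFI lies between PLA2G12A, at 4.43, 3.32 and 4.91 FPKM, and GAR1, at 66.9, 105 and 83.0 FPKM. The spans of C2 and ZBTB12 overlap, and the strand setting of the counting is not given in the sources used here, so fragments of that pair may be shared.

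**Figure D2:**
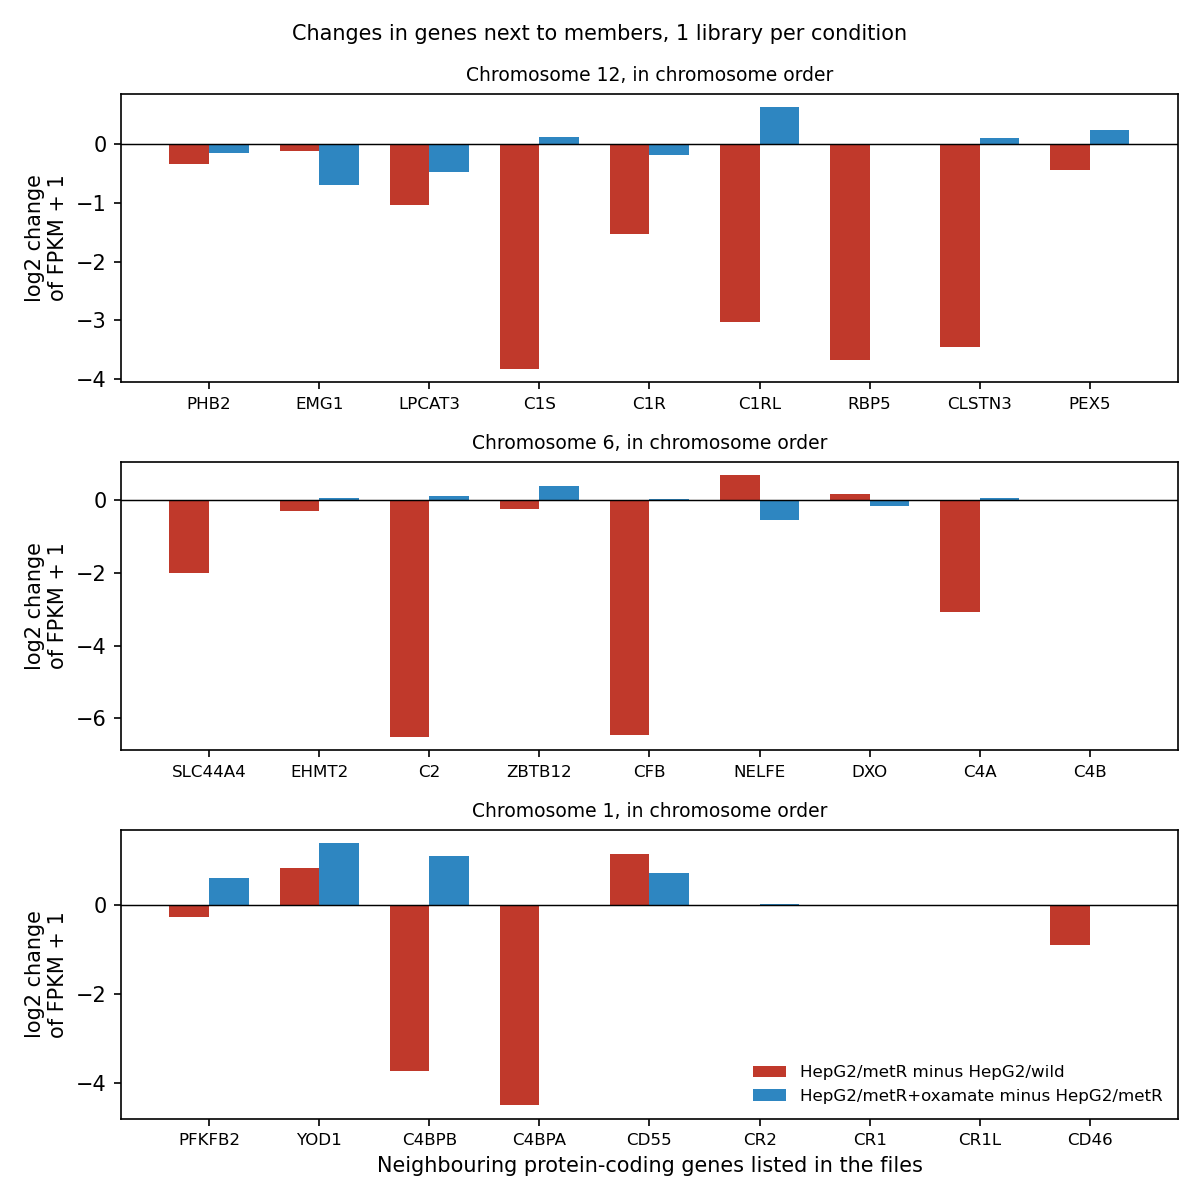
Log2 change of FPKM + 1 (vertical axis) for protein-coding genes in chromosome order (horizontal axis) around C1R (top), CFB (middle) and CD55 (bottom), as bars for HepG2/metR minus HepG2/wild (red) and HepG2/metR+oxamate minus HepG2/metR (blue). C2 and CFB were lower on either side of ZBTB12. Of the 5 genes on chromosome 1 up to CD55 all but C4BPA had blue bars past 1.5-fold higher, as did 4.31% of all genes kept.

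On chromosome 1 the order is PFKFB2, YOD1, C4BPB, C4BPA, CD55, CR2, CR1, CR1L and CD46. CD55 and CD46 thus lie in a group of related complement regulator genes, in which C4BPA was listed at 0 in both HepG2/metR libraries and CR2, CR1 and CR1L were at or near 0 in all. With oxamate, PFKFB2 changed by 0.62, YOD1 by 1.40, C4BPB by 1.10 and CD55 by 0.73 on the log2 scale. These genes were past 1.5-fold higher, as were 4.31% of all genes kept. YOD1 was at 4.48 FPKM in HepG2/wild, 8.71 FPKM in HepG2/metR and 24.6 FPKM in HepG2/metR+oxamate. They are not an unbroken run, since C4BPA lies between C4BPB and CD55. These genes were chosen after their values were seen, the spans of PFKFB2 and YOD1 overlap, and the sharing of fragments between them was not tested. CD46, at the far end, did not differ past 1.5-fold with oxamate.

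CD55 and CD59 are held in the membrane by a glycosylphosphatidylinositol anchor, so the genes that build it were followed. Of 27 such genes 26 were found, and 26 were at 1 FPKM or more in all 3 libraries. None was past 2-fold in HepG2/metR against HepG2/wild, where 16.6% of all genes kept were higher and 17.6% lower, and the median log2 change was -0.03, beside 0.01 over all genes kept. GPAA1, at 0.98, lay just short of it, as did PGAP3 in the lower direction, and these calls depend on the setting. In FPKM GPAA1 was 2.02-fold higher and PGAP3 2.38-fold lower. The list had 1 gene past 2-fold higher at a pseudocount of 0.1 or 0.01, at the same total and at the upper quartile, and 1 past 2-fold lower at either pseudocount and at the median of ratios. With oxamate PGAP1, which remodels the anchor, was past 1.5-fold higher at a log2 change of 0.71, and the synthesis genes PIGW and DPM2 were lower at -0.95 and -0.65. Over all genes kept 4.31% were higher and 3.82% lower, so such numbers among 26 genes are near the background and no result about the anchor genes. Scaled to the same total, DPM2 was no longer past 1.5-fold. The median with oxamate was -0.13, beside 0.02 over all genes kept, and it turned to 0.04 at the same total, beside 0.17 over all genes.

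Of 22 genes of cytokine signalling and liver transcription factors known to act on complement genes, 21 passed the filter, 4 of them only through HepG2/wild. In HepG2/metR 2 were higher and 9 lower than in HepG2/wild, beside 16.6% and 17.6% of all genes kept, and those 4, which had to be lower, are among the 9. HNF4A, a nuclear receptor that sets the hepatocyte program, was at 68.7 FPKM in HepG2/wild, 0.0156 FPKM in HepG2/metR and 0.0153 FPKM in HepG2/metR+oxamate. CEBPA, which also acts in hepatocytes, was at 74.3, 0.558 and 0.723 FPKM. HNF4A and CEBPA are among the 4 that passed the filter only through HepG2/wild, as the secreted genes did. That all of them were highest there was thus set by the filter, and nothing is read from it. The part of these factors in the complement values was not tested.

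The cytokine IL6 was listed at 0 in HepG2/wild and stood at 12.7 FPKM in HepG2/metR and 7.34 FPKM in HepG2/metR+oxamate. IL1B was at 0.0638, 2.56 and 1.58 FPKM. The receptor genes did not share a direction. Lower in HepG2/metR was IL6R, at 12.5, 1.74 and 1.99 FPKM. IL1R1, at 17.8, 0.0424 and 0.0207 FPKM, passed the filter only through HepG2/wild and so had to be lower. Of the 2 chains of the interferon gamma receptor, IFNGR1 was at 74.7, 12.4 and 17.6 FPKM and IFNGR2 at 21.9, 33.1 and 28.5 FPKM. TNFRSF1A, a receptor of tumour necrosis factor, was at 68.5, 52.8 and 40.1 FPKM. The shared receptor chain IL6ST and the factors STAT2, STAT3, RELA and NFKB1 were within 2-fold. Past 2-fold lower in HepG2/metR were IRF9, NFKBIA and CEBPD, at log2 changes of -1.39, -1.63 and -1.43, beside 17.6% of all genes kept. With oxamate only IL6 of the 21 kept was past 1.5-fold, lower at a log2 change of -0.71. Over all genes kept 3.82% were lower and 4.31% higher, so 1 such gene is near the background and no result about the list. These calls depend on the setting. IL1B was also lower at a pseudocount of 0.1 and 0.01, and IL1R1 at 0.01. With libraries scaled to the same total IL6 was not past 1.5-fold, while IFNGR1 was, in the higher direction.

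Acute-phase genes, whose secreted products the liver makes in inflammation, numbered 14, of which 11 passed the filter, 8 of them only through HepG2/wild. These 8 had to be lower in HepG2/metR, so nothing is read from a count or median over the 11. The other 3 were SAA1, SAA2 and SERPINA1. SAA1 and SAA2 were past 2-fold higher in HepG2/metR, beside 16.6% of all genes kept. SAA1 was listed at 0 in HepG2/wild and stood at 121 FPKM in HepG2/metR and 107 FPKM in HepG2/metR+oxamate. SAA2 was listed at 0 and stood at 5.68 and 5.95 FPKM in the same order. SAA1 and SAA2 are near-identical copies, so the split between them is uncertain. SAA4, also of the list, was at 225 FPKM in HepG2/wild, 1.07e-06 FPKM in HepG2/metR and 0 FPKM in HepG2/metR+oxamate. It is among the 8 that had to be lower, and the sharing of fragments between it and SAA1 or SAA2 was not tested. SERPINA1, which encodes antitrypsin, was at 1709 FPKM in HepG2/wild, 11.2 FPKM in HepG2/metR and 7.10 FPKM in HepG2/metR+oxamate. With oxamate SERPINA1 alone of the list was past 1.5-fold, lower at a log2 change of -0.59, beside 3.82% of all genes kept. With libraries scaled to the same total or by the upper quartile it was not past 1.5-fold. At a pseudocount of 0.01 HP and SERPINA3 were past 1.5-fold higher.

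The genes whose pattern was most like each member were found by the distance between deposited values over the 3 libraries, each gene centred on its own mean. For C1S the nearest was CRIP2, at a distance of 0.00761, followed by the actin-severing gene GSN at 0.0276. For C1R it was GPR160 at 0.0201, followed by the transcription factor gene SOX9 at 0.0271. For C3 it was the lipoprotein gene APOC2 at 0.0703, followed by RPS4Y1, a ribosomal protein gene of the Y chromosome, at 0.0908 and the fatty acid carrier gene FABP1 at 0.109. A Y-linked gene was thus among those that most resembled C3 in differing between HepG2/wild and the HepG2/metR libraries. As with the hepatocyte markers, whether this came with the drug, the culture or the origin of the cells cannot be told apart. For C5 the nearest was GPRC5C at 0.0212. For CFB the nearest was the nuclear receptor gene NR0B2 at 0.0451, and the complement gene C2 came after RARRES2 at 0.0612. For CFI the nearest was SNORD125 at 0.0329, followed by BPIFB2 at 0.0453 and HAMP, the hormone of iron balance, at 0.0465. Among the membrane regulators the nearest were ISCA1 to CD46 at 0.00354, VSTM2L to CD55 at 0.0349 and ATF6B to CD59 at 0.0140. With 3 values per gene such a distance describes only the shape over these libraries.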

How the data were processed

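Total RNA of HepG2/wild, HepG2/metR and HepG2/metR+oxamate cells was sequenced, with 1 library per condition. The authors deposited log2 values, 1 per gene symbol and library. No label or method names their unit, and log2(FPKM + 1) was inferred here: 2 to the power of the value, minus 1, had at most 6 significant digits for 100% of values above 1 FPKM. The submitters' processing notes name STAR 2.5.1b, Cufflinks 2.2.1, FastQC 0.11.5 and hg19. The annotation, the strand setting and the filters are not given in the sources used here. Each file held 25270 symbols, of which 28 had become dates and were left out. The read depth is unknown, and relative depth was taken as the commonest ratio between libraries among genes below 0.15 FPKM.

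Values were used as deposited, so the pseudocount is 1, and genes with a mean of at least 1 FPKM over the 3 libraries were kept. Thresholds were 2-fold against HepG2/wild and 1.5-fold for oxamate, after the study's methods. No test was run, since there are no replicates. All 9 members, genes of the role, anchor, regulator, acute-phase and marker lists, and the 3 genes nearest in pattern to each member could be named. Others were chosen after their values were seen, such as chromosome neighbours. Some genes of the lists enter the counts but are not reported here by name, nor is 1 of the motifs searched. The members and lists were chosen with earlier results of these data known. Alternatives were a pseudocount of 0.1 or 0.01, no filter or a mean of at least 5 FPKM, scaling to the same total, upper quartile or median of ratios, and a threshold of 2-fold or 1.5-fold in every comparison. Start regions and gene order came from RefSeq on GRCh38.p14, and no coordinates of the files' build were used. The calculation was tested on simulated data with changes put into well-expressed genes only, so the test does not cover genes under 1 FPKM. Python 3.11, numpy 2.4.6, pandas 2.3.3 and matplotlib 3.10.9 were used.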

Additional observations from a re-analysis of the deposited data

How the results depend on the processing

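With 1 library per condition, the size of a chance difference is unknown, and genes under 1 FPKM may rest on few fragments. Of 240 values of single members under the alternatives, 235 kept their side of the threshold. The change of CFI with oxamate, near 0, turned from negative to positive at the same total and the upper quartile, and no other member's change turned sign. CD46 passed at 1.5-fold in both comparisons with HepG2/wild, at a log2 change of -0.90 in each, CD55 did not pass with oxamate at 2-fold, and C3 and CFB passed with oxamate at a pseudocount of 0.01. The CD55 change with oxamate ran from 0.73 to 0.90 over the alternatives. Of the 9 genes 6, and of the 25 kept of the 57-gene list 17, passed the filter only through HepG2/wild and had to be lower elsewhere, so the medians and counts against HepG2/wild that follow show how they move and support no result. For HepG2/metR against HepG2/wild the median of the 9 genes was -5.11 at a pseudocount of 0.1, -5.35 at 0.01 and -4.50 with a mean of at least 5 FPKM, and that of the list was -5.57, -7.03 and -4.02 in the same order and -0.066 with no filter. For HepG2/metR+oxamate against HepG2/wild the medians were -4.83, -5.02 and -4.40 for the 9 genes and -5.33, -7.21 and -4.05 for the list, with -0.048 with no filter. The stricter filter left 12 lower genes of the list among 17 kept in each comparison, beside 15.9% and 16.6% of all genes, but 10 of the 17 were at 5 FPKM or more in HepG2/wild alone. With oxamate the members higher numbered 3 at a pseudocount of 0.01 and 0 at 2-fold, and those of the list 5 at 0.1, 8 at 0.01 and 1 at 2-fold, with 3 lower at 0.01. The lectin list's median turned to 4.05 and 4.34 in the comparisons with HepG2/wild under the stricter filter, which kept COLEC10 alone. Lower pseudocounts by construction enlarge changes near 0, and filters change which genes enter. Scaling moved the median of all genes by more than 0.1 at the same total, to 0.17 with oxamate and 0.22 for HepG2/metR+oxamate against HepG2/wild, and at the upper quartile, to 0.15 for HepG2/metR and 0.18 for HepG2/metR+oxamate against HepG2/wild.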

Other observations

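Several genes near members on the chromosome had patterns unlike that of the member. HIPK3, a kinase gene near CD59 on chromosome 11, was at 8.79 FPKM in HepG2/wild, 9.44 FPKM in HepG2/metR and 17.3 FPKM in HepG2/metR+oxamate, a log2 change of 0.81 with oxamate, while CD59 changed by 0.01. C1RL, beside C1R, changed by 0.64 with oxamate, while C1R changed by -0.17. Near CD46, the laminin chain gene LAMB3 was at 0.275 FPKM in HepG2/wild, 42.4 FPKM in HepG2/metR and 40.8 FPKM in HepG2/metR+oxamate. Near C3, the TNF family gene CD70 was listed at 0 in HepG2/wild and stood at 4.75 and 4.25 FPKM in the HepG2/metR libraries, where C3 was under 1 FPKM. These neighbours were named after their values were seen, and no comparison with other gene pairs was made.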
